A study of Mus musculus with 19 samples.

Results

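The genes described here carry newly made proteins into the endoplasmic reticulum (ER) and move them between the ER and the Golgi apparatus. They were taken by name from the gene column of the arrays, as probes whose gene name starts with Sec, Ssr or Srp and a number (not Srpk), with Spcs, Srpr, Sar1, Tram1, Tram2, Tmed or Kdelr, or is Copa, Copb1, Copb2, Cope, Copg, Copg2, Copz1 or Copz2. The rule itself used no measured value, but this set of genes was chosen with earlier results of these data known. It found 108 of the 41174 probes, which carry 53 gene names. The gene column holds 29742 different names in all. Of the selected probes, 99 were bright enough to be tested, and each of the 53 genes had at least 1 of them. Signal peptidase (Spcs), Sar1 and Tmed genes were not analysed here, since no gene name in the files began with these letters. Several names are old: Sec13l1 is Sec13, Sec31l1 is Sec31a, Copg is Copg1, and Sec22l1, Sec22l2 and Sec22l3 are Sec22b, Sec22a and Sec22c. The name rule also caught genes that belong to neither ER translocation nor a vesicle coat: 18 probes of 6 exocyst genes (Sec5l1, Sec6l1, Sec8l1, Sec10l1, Sec15l1 and Sec15l2, now Exoc2, Exoc3, Exoc4, Exoc5, Exoc6 and Exoc6b), and 7 probes of the lipid-binding Sec14-like proteins and of Sec1, which encodes a fucosyltransferase. These are counted with the rest and also given separately.

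Secretory proteins such as insulin are recognised on the ribosome by the signal recognition particle, which docks at its receptor on the ER membrane and hands the growing chain to the Sec61 channel. Folded cargo leaves the ER in vesicles coated with COPII, and COPI-coated vesicles bring escaped ER proteins and receptors back from the Golgi. Beta cells, which make up most of an islet, send much of the protein they make through this route.

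The study asked how islets of mice that differ in their susceptibility to diabetes respond to glucose. The islets came from males, aged 12 weeks, of the strains C57BL/6 (B6, given as the J substrain in the study's text) and C57BLKS/J (BLKS) and the islets of each mouse were cultured separately. All islets were first kept for 48 h in 11 mM glucose, and then for 24 h in 5 mM glucose (low, 5 B6 and 5 BLKS mice) or 20 mM glucose (high, 5 B6 and 4 BLKS mice). Of every animal's islet RNA, 200 ng went into labelling with either of 2 dyes before it was hybridised to 2-colour arrays, 20 in all, most of which paired a B6 with a BLKS mouse of the same glucose concentration. Values are log2 signals, taken as the mean of both dyes, so a difference of 1 is a factor of 2.

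The arrays' median spot signal lay between 75.0 and 103, against a median of 50.8 to 60.9 for the negative control spots, and none of the 4320 readings of the selected probes was saturated or marked as an outlier. The hormone genes of the islet were at the top of the scale: all 40 readings of Ins1 and all 40 of Iapp were saturated, and so were 40 of 80 for Gcg. The 2 libraries labelled B6 low 4 and BLKS low 5 went against their strain label. On a scale where the B6 mice in high glucose average 0 and the BLKS mice 1, taken over 106 probes outside the selection with a strain difference in high glucose, the values were 1.01 for the library labelled B6 low 4 and -0.045 for the library labelled BLKS low 5, while the other B6 mice in low glucose lay between -0.063 and 0.019 and the other BLKS mice between 0.927 and 1.01. Both libraries were kept under their labels, and calls among the results below that turn without both are given with that value. In the values listed below, they are the fourth value of B6 and the fifth of BLKS in low glucose.

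Across both strains, all probes of the TRAP complex and of the KDEL receptors rose in high glucose, most of those for the Sec61 channel and the signal recognition particle did, and the coat genes rose in part. Of the 99 tested probes, 54 were called higher and 1 was called lower in 20 mM glucose when the responses of both strains were averaged (limma, Benjamini-Hochberg adjusted p below 0.05 over all 29330 probes tested). Among all tested probes, 10.8% were called higher and 11.5% lower. This fit took all mice as independent, although mice that shared an array pair deviated together. With a random block for array pairs, 46 of the 99 probes were called higher and 1 lower over both strains. The share of all tested probes called with that block is not given here. The median change of the selected probes was 0.13 on the log2 scale, against -0.004 over all tested probes, and 78 of 99 were above 0, against 47.8% of all tested probes. Leaving out the exocyst, Sec14-like and Sec1 probes, 52 of 81 probes were called higher and 0 lower (57 had an unadjusted p below 0.05), with a median of 0.20. Counted by gene at the brightest tested probe, 31 of 53 genes were higher and 1 was lower. In whole islets, a change in the share of cells of a type and a change in RNA per cell cannot be told apart. The changes ran from -0.18 at a probe for Sec14l1 to 0.86 at a probe for Tram1.

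In B6 islets alone, 43 of 99 probes were called higher and 1 lower, against 5.41% and 4.12% of all tested probes. In BLKS islets, 39 were higher and 1 lower, against 6.47% and 5.13%. The median change was 0.15 in B6 and 0.12 in BLKS. Every B6 mouse in high glucose was above every B6 mouse in low glucose at 33 of 99 probes, against 4.24% of all tested probes, and the same held in BLKS at 39 of 99 probes, against 7.09%.

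**Figure D1:**
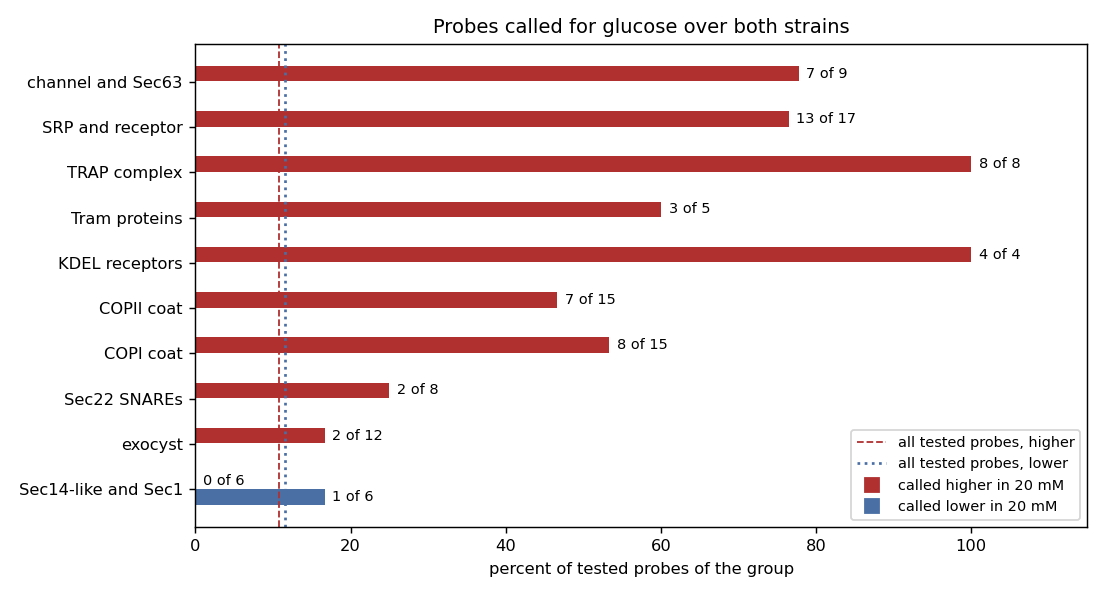
Share of the tested probes of each group of genes that were called higher (red) or lower (blue) in 20 mM glucose over both strains, in percent, with the counts beside the bars and the shares among all 29330 tested probes as vertical lines at 10.8% and 11.5%. The TRAP complex (8 of 8) and the KDEL receptors (4 of 4) stand highest, and the exocyst (2 of 12) and the Sec14-like and Sec1 probes (0 of 6 higher, 1 of 6 lower) lie nearest to the lines.

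The same shift was seen mouse by mouse. The deviation of each tested probe from its mean over the 19 mice was taken, and its median over the selected probes was between -0.15 and -0.034 in the B6 mice in low glucose and between -0.10 and 0.0062 in the BLKS mice in low glucose. It was between 0.016 and 0.108 in the B6 mice and between 0.073 and 0.11 in the BLKS mice in high glucose. The mice in high glucose thus did not overlap those in low glucose. The same median over all tested probes lay between -0.020 and 0.0026 in the 19 mice. Scaling between arrays holds that median near 0, so it cannot show whether all probes shifted together.

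**Figure D2:**
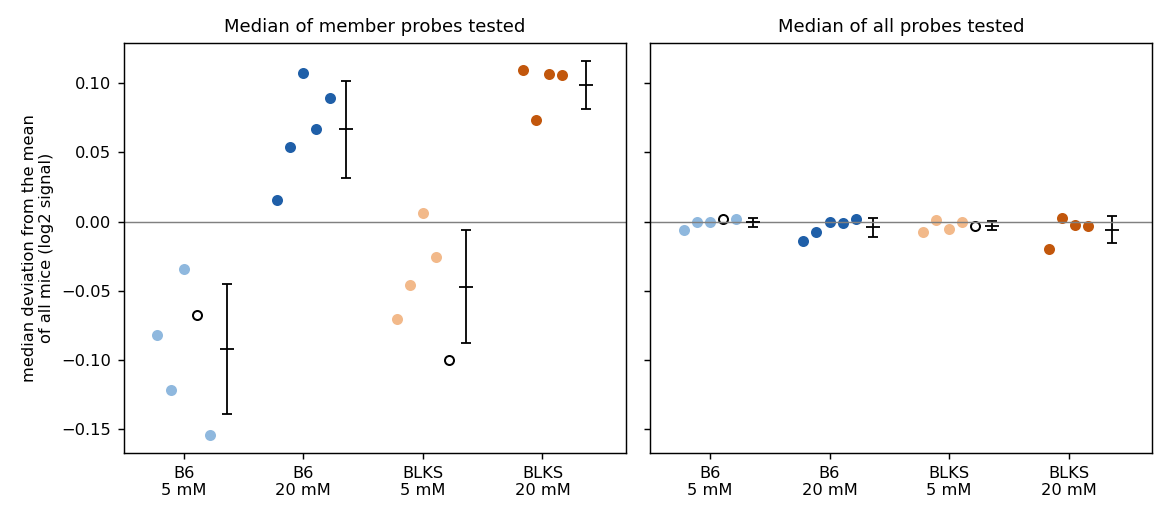
Median deviation of the 99 tested probes of the selection (left) and of all tested probes (right) from the mean of all mice, in log2 signal, with 1 point per mouse, the mean and SD of each group beside the points, and the libraries labelled B6 low 4 and BLKS low 5 as open black circles. On the left every mouse in 20 mM glucose is above every mouse in 5 mM glucose. On the right all mice are close to 0, where scaling between arrays holds them.

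Nearly all arrays held mice of 1 glucose concentration, so glucose and array cannot be told apart on them. The exception was a pair of arrays, scanned later, on which B6 high 5 was hybridised against B6 low 1. There, 70 of the 99 selected probes were higher in the mouse in high glucose, with a median difference of 0.12, and so were 51 of the 54 probes that had risen over both strains, with a median of 0.34. Over all tested probes, 48.7% were higher, with a median of -0.003. B6 high 5 and B6 low 1 also entered the comparison of the groups, so these values are not independent of it, and with 1 mouse a side there is no test.

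The channel itself was among the genes that rose. Sec61 is made of an alpha, a beta and a gamma subunit, and Sec63 is a membrane partner that helps proteins through it. Of the 9 tested probes, 7 were called higher over both strains, 7 in B6 and 4 in BLKS. The probe for Sec61b, the beta subunit, had a log2 signal of 13.37, 13.42, 13.21, 13.47 and 13.24 in the B6 mice in low glucose and of 13.82, 13.77, 13.88, 13.74 and 13.93 in high glucose. In BLKS it was at 13.53, 13.43, 13.53, 13.56 and 13.44 in low and at 13.92, 13.86, 13.77 and 13.91 in high glucose. All mice in high glucose were above all mice in low glucose, in both strains. The signal rose by 0.48 ± 0.051 (SE), or 1.40-fold, in B6 (limma adjusted p = 1.3e-05) and by 0.37 ± 0.055, or 1.29-fold, in BLKS (adjusted p = 0.00024). An exact two-sided permutation test over the mice gave p = 0.0079 in either strain, the smallest value these group sizes allow.

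Sec61a1, which forms the pore, was measured by 3 probes, and all 3 were higher over both strains. At the brightest, the B6 mice were at 13.06, 13.10, 13.02, 13.23 and 13.06 in low and 13.43, 13.60, 13.51, 13.55 and 13.55 in high glucose. The BLKS mice were at 13.31, 13.21, 13.33, 13.26 and 13.35 in low and 13.59, 13.58, 13.41 and 13.66 in high glucose. The groups did not overlap in either strain, and the change was 0.43 ± 0.048 in B6 (limma adjusted p = 2.1e-05) and 0.27 ± 0.051 in BLKS (adjusted p = 0.0018). Sec61a2, a second gene for the alpha subunit, was at -0.05 ± 0.045 over both strains and was not called.

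Sec61g, the gamma subunit, rose in B6 by 0.46 ± 0.080 (limma adjusted p = 0.00102), while its change in BLKS was 0.10 ± 0.085 (adjusted p = 0.50). The B6 mice were at 12.94, 13.11, 12.75, 13.09 and 12.76 in low and 13.41, 13.43, 13.50, 13.17 and 13.44 in high glucose. In BLKS the values were 13.32, 13.18, 13.22, 13.13 and 13.04 in low and 13.47, 13.23, 13.21 and 13.21 in high glucose, and the groups overlapped. Set against each other, the 2 responses differed by -0.36 ± 0.116, which did not pass the test over all probes (adjusted p = 0.81). The 3 probes for Sec63 disagreed: they changed by 0.52, 0.17 and -0.11 over both strains, and the first 2 were called higher.

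The signal recognition particle and its receptor had 17 tested probes, of which 13 were higher over both strains, 11 in B6 and 10 in BLKS. Srprb, the membrane-anchored beta subunit of the receptor, rose at all 3 of its probes. The brightest was at 8.41, 8.17, 8.30, 8.38 and 8.09 in the B6 mice in low glucose and at 8.68, 8.76, 8.85, 8.77 and 8.92 in high glucose. The BLKS mice were at 8.52, 8.46, 8.57, 8.55 and 8.41 in low and 9.10, 9.20, 9.03 and 9.13 in high glucose. The groups were apart in both strains, with a rise of 0.53 ± 0.059 or 1.44-fold in B6 (limma adjusted p = 2.4e-05) and of 0.61 ± 0.063 or 1.53-fold in BLKS (adjusted p = 8.4e-06). For Srpr, the alpha subunit of the receptor, 3 of 4 probes were higher over both strains, the fourth being dim (5.99 to 6.15). Its brightest probe changed by 0.22 ± 0.108 in B6 (adjusted p = 0.24) and rose by 0.41 ± 0.114 in BLKS (adjusted p = 0.024), a call that was lost without the 2 libraries that went against their label (0.37, adjusted p = 0.0664).

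In the particle itself, Srp9 rose at both probes, by 0.36 and 0.41 over both strains. At its brightest probe the B6 mice were at 12.02, 12.32, 12.05, 12.38 and 12.06 in low and 12.48, 12.54, 12.66, 12.33 and 12.58 in high glucose, and these groups overlapped through the library labelled B6 low 4 (12.38). Srp19 and Srp68 each rose at their 1 probe, by 0.32 ± 0.058 and 0.21 ± 0.040 over both strains, and Srp72 rose at all 3 of its probes, by 0.13 to 0.23. Srp14 was at 0.03 ± 0.047 and was not called. Srp54, whose protein binds the signal sequence and which has near-identical copies in the mouse genome, so that its probes may measure several genes, was at 0.13 and 0.14 at its 2 probes and was not called.

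The TRAP complex (Ssr genes), which sits beside the channel and assists it, rose at every probe. All 8 tested probes of its 4 genes were higher over both strains, by 0.30 to 0.65, and 7 of 8 were called in each strain. Ssr3 was at 11.25, 10.99, 11.10, 11.06 and 10.75 in the B6 mice in low glucose and at 11.49, 11.55, 11.48, 11.47 and 11.44 in high glucose at its brightest probe. In BLKS it was at 11.35, 11.15, 11.23, 11.21 and 10.97 in low and 11.72, 11.67, 11.43 and 11.45 in high glucose. The mice in high glucose lay above all in low glucose, with a rise of 0.46 ± 0.081 in B6 (limma adjusted p = 0.0012) and 0.39 ± 0.086 in BLKS (adjusted p = 0.0056). Its other 2 probes rose by 0.61 and 0.45 over both strains. Ssr2 rose by 0.47 ± 0.070 in B6 (adjusted p = 0.00030) and by 0.32 ± 0.074 in BLKS (adjusted p = 0.0080). Ssr4 rose at its brightest probe by 0.39 ± 0.068 in B6 (adjusted p = 0.00105) and by 0.24 ± 0.072 in BLKS (adjusted p = 0.039, and 0.0860 without the 2 libraries that went against their label), where its mice in high glucose, at 13.62, 13.58, 13.38 and 13.57, met those in low glucose, at 13.38, 13.30, 13.39, 13.31 and 13.12.

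Tram1, a membrane protein next to the channel that helps some proteins enter, held the largest change of the selection, and its 3 probes agreed in direction. The probe A_52_P547328 was at 8.89, 8.80, 8.88, 9.0 and 8.55 in the B6 mice in low glucose and at 9.35, 9.46, 9.5, 9.60 and 9.62 in high glucose. In BLKS it was at 9.0, 9.09, 9.24, 9.14 and 8.69 in low and at 10.06, 10.03, 10.07 and 10.08 in high glucose. Neither strain showed overlap, and the rise was 0.68 ± 0.089, or 1.61-fold, in B6 (limma adjusted p = 7.85e-05) and 1.03 ± 0.094, or 2.04-fold, in BLKS (adjusted p = 3.8e-06). The brightest probe rose by 0.38 ± 0.057 in B6 and 0.48 ± 0.061 in BLKS, and the third by 0.32 ± 0.052 and 0.45 ± 0.055, all 4 of these changes being called. The related genes Tram1l1 and Tram2 were at 0.02 ± 0.051 and -0.03 ± 0.042 over both strains and were not called.

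**Figure D3:**
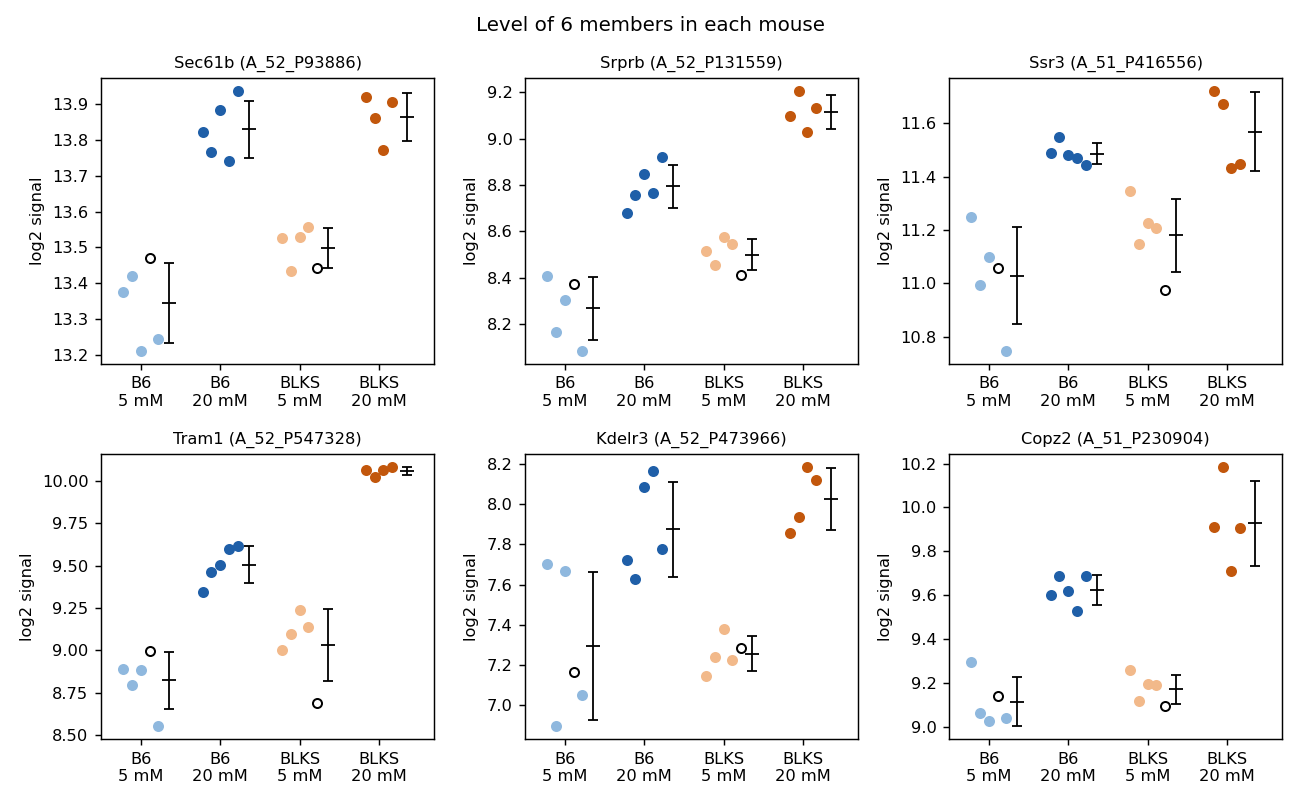
Log2 signal of 6 genes in each mouse, with 1 point per mouse, the mean and SD of each group beside the points, and the libraries labelled B6 low 4 and BLKS low 5 as open black circles. The mice in 20 mM glucose lie above those in 5 mM glucose in both strains, apart from Kdelr3 in B6, where 2 mice in low glucose (7.70 and 7.67) lie above the lowest mouse in high glucose (7.63). Axes differ between panels and do not start at 0.

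The KDEL receptors catch soluble ER proteins that have reached the Golgi and return them to the ER. All 4 probes of the 3 genes were higher in both strains taken singly. Kdelr3 changed the most: the B6 mice were at 7.70, 6.89, 7.67, 7.17 and 7.05 in low and 7.72, 7.63, 8.09, 8.17 and 7.78 in high glucose. The BLKS mice were at 7.14, 7.24, 7.38, 7.23 and 7.29 in low and at 7.86, 7.94, 8.19 and 8.12 in high glucose. The groups overlapped in B6 and were apart in BLKS, and the rise was 0.58 ± 0.139 in B6 (limma adjusted p = 0.011) and 0.77 ± 0.147 in BLKS (adjusted p = 0.0018). On the pair of arrays that held both glucose concentrations, where the mouse in low glucose was B6 low 1 with its high value of 7.70, the difference for Kdelr3 was 0.03. At the brighter of its 2 probes, Kdelr2 rose by 0.46 ± 0.063 in B6 islets (adjusted p = 0.00012) and by 0.32 ± 0.067 in those of BLKS (adjusted p = 0.0041), and Kdelr1 by 0.32 ± 0.066 (adjusted p = 0.0044) and 0.39 ± 0.070 (adjusted p = 0.00105).

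The coats moved less evenly. Of the 15 probes for COPII, whose inner layer is made of Sec23 and Sec24 and whose outer layer is made of Sec13 and Sec31, 7 were higher over both strains and 0 were lower. Sec13l1 rose most, at 9.07, 8.80, 8.90, 8.86 and 8.65 in the B6 mice in low and 9.04, 9.13, 9.28, 9.16 and 9.20 in high glucose. In BLKS it was at 8.85, 8.81, 8.91, 8.92 and 8.75 in low and 9.18, 9.49, 9.22 and 9.36 in high glucose. B6 low 1 reached into the range of the B6 mice in high glucose, and the BLKS groups were apart, with a rise of 0.31 ± 0.070 in B6 (limma adjusted p = 0.0078) and 0.47 ± 0.074 in BLKS (adjusted p = 0.00038). Its second probe was at 0.10 over both strains and was not called, but was dim (6.19 to 6.52 in all mice). Sec23b rose at both probes, by 0.28 and 0.30 over both strains. Sec23a rose at the brighter of 2 probes, by 0.13, and Sec23ip, a partner of Sec23, at the brighter of 2, by 0.27. Of the cargo-binding Sec24 genes, Sec24d rose by 0.20 ± 0.044 over both strains and Sec24a at 1 of its 3 probes by 0.14 ± 0.047, whereas Sec24b and Sec24c were at -0.02 ± 0.041 and -0.01 ± 0.046. Sec31l1 was at -0.03 ± 0.037 and was not called either. The outer layer thus had 1 gene that rose, at the brighter of its 2 probes, and 1 that did not pass the test.

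COPI coats are built of 7 coatomer subunits, of which the delta subunit (Arcn1) lies outside the name rule. Of the 15 tested COPI probes, 8 were higher over both strains and 0 were lower. The largest change was that of Copz2, the second of 2 genes for the zeta subunit: its brightest probe was at 9.30, 9.07, 9.03, 9.14 and 9.04 in the B6 mice in low and at 9.60, 9.69, 9.62, 9.53 and 9.69 in high glucose. In BLKS it was at 9.26, 9.12, 9.20, 9.19 and 9.10 in low and at 9.91, 10.18, 9.71 and 9.91 in high glucose. No mouse in low glucose reached those in high glucose, and the rise was 0.51 ± 0.069 or 1.42-fold in B6 (limma adjusted p = 0.00011) and 0.76 ± 0.073 or 1.69-fold in BLKS (adjusted p = 5.4e-06). The second Copz2 probe was at 0.05 ± 0.028 over both strains and was not called. It was dim, between 6.16 and 6.37 in all mice, near the negative control spots, so it could show little of a change. Copz1, the other zeta gene, was at 0.11 ± 0.028 over both strains and was called.

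Cope, the epsilon subunit, rose by 0.27 ± 0.056 over both strains and Copb2, the beta-prime subunit, by 0.19 ± 0.030, or 1.15-fold in B6 and 1.14-fold in BLKS. Copg rose at all 3 probes, by 0.10 to 0.33, while the 3 tested probes of Copg2, the second gene for the gamma subunit, were at -0.08, -0.07 and -0.04 and were not called. Copa, the alpha subunit, rose at 1 of 2 probes by 0.15, and Copb1, the beta subunit, was at 0.19 ± 0.073 and 0.06 and was not called over both strains. Where a coat subunit is encoded by 2 genes, their changes thus stood at 0.11 and 0.63 for the zeta subunit and at 0.10 and -0.08 for the gamma subunit, taken at the brightest probe. The difference between the genes of a pair was not tested.

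The Sec22 proteins are SNAREs that help vesicles fuse between ER and Golgi. Sec22l1 (Sec22b), the member known to work there, rose at both probes, by 0.24 and 0.31 over both strains, and its brightest probe was called in B6 (0.29 ± 0.039, limma adjusted p = 0.00011) and in BLKS (0.18 ± 0.042, adjusted p = 0.0084). The 6 tested probes of Sec22l2 and Sec22l3 lay between -0.09 and 0.09 and none was called over both strains.

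The genes that the name rule caught outside this route moved little, but part of their probes were dim. The Sec14l2 probe, for one, lay between 6.36 and 6.51 in all mice, near the negative control spots, and could show little of a change. Others were brighter, such as a Sec15l1 probe at 8.13 to 8.37, which was not called. Of the 12 tested exocyst probes, 2 were called higher over both strains, for Sec15l2 and Sec6l1, by 0.13 and 0.10, and the median was -0.0004. The Sec15l2 call was lost without the mouse BLKS high 2 and with a random block for array pairs (limma adjusted p = 0.0878). The exocyst tethers vesicles at the plasma membrane. Of the 6 tested Sec14-like and Sec1 probes, none was higher and 1 of 3 for Sec14l1 was lower. It was at 8.81, 8.79, 8.90, 8.90 and 8.91 in the B6 mice in low and 8.67, 8.59, 8.70, 8.67 and 8.56 in high glucose. In BLKS it was at 8.77, 8.86, 8.86, 8.79 and 8.89 in low and 8.63, 8.65, 8.79 and 8.70 in high glucose. It fell by 0.22 ± 0.0395 in B6 (limma adjusted p = 0.00115), where the groups did not overlap, and by 0.14 ± 0.042 in BLKS (adjusted p = 0.036), where they did, and the BLKS call was lost without the 2 libraries (adjusted p = 0.0913). Its other 2 probes were at -0.01 and 0.02.

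**Figure D4:**
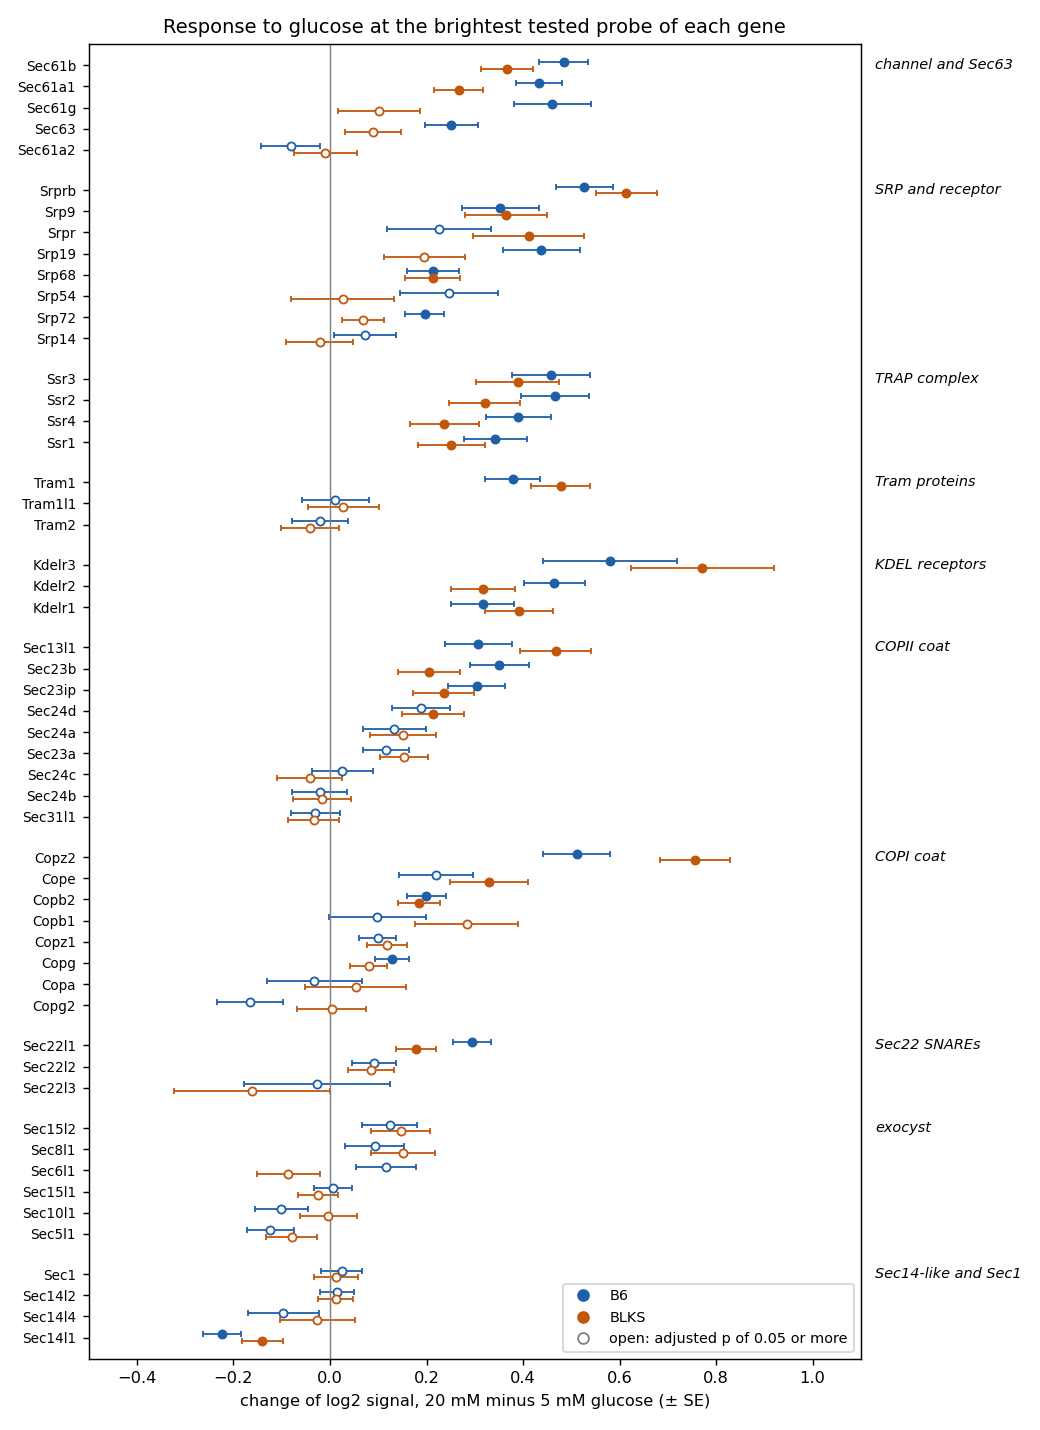
Change in log2 signal between 20 and 5 mM glucose at the brightest tested probe of each of the 53 genes, with its SE, in B6 (blue) and BLKS (orange), grouped by role, with filled points where the adjusted p was below 0.05. The genes of translocation and the KDEL receptors lie mostly right of 0 in both strains, the coat genes spread from -0.17 (Copg2 in B6) to 0.76 (Copz2 in BLKS), and the exocyst and Sec14-like genes lie around 0.

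Among the 31 genes with several tested probes, the probes of 24 changed in 1 direction over both strains. They were called at every probe for 12 genes, at some for 11 and at none for 8. The direction of a gene was thus mostly shared by its probes, but its call often was not. Some of the uncalled probes were near background, such as the dimmer probes of Copz2, Sec13l1 and Sec23a, and could show little of a change.

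Genes of the same pathway outside the selection, taken from lists made with knowledge of earlier results on these data, moved in the same direction. Of 12 genes for the oligosaccharyltransferase and N-glycosylation, which attach and trim sugars on proteins entering the ER, 11 were higher over both strains, with a median of 0.50 at the brightest probes. The largest was Gcs1, the glucosidase that trims the first sugar, which rose by 0.78 ± 0.077 in B6 and 0.82 ± 0.081 in BLKS. Of 18 ER chaperones and folding enzymes, 17 were higher, with a median of 0.49. Fkbp11 rose by 1.29 ± 0.178 in B6 and 1.14 ± 0.188 in BLKS, and Hspa5 (BiP), the main ER chaperone, by 0.31 ± 0.066 over both strains. Of 16 genes for ER exit and cargo handling outside the name rule, 12 were higher and 0 lower, with a median of 0.26. Among them, the SNARE gene Bet1 rose by 0.47 ± 0.074 over both strains, and Mcfd2, a partner of the cargo receptor Lman1, by 0.41 ± 0.056. Of 11 genes for COPI and its Arf regulators, 7 were higher and 1 (Arf3) was lower, with a median of 0.15. Arcn1, the delta coatomer subunit, was at 0.23 ± 0.104 over both strains and was not called.

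Genes that sense or signal ER stress rose in part. Of 15 genes of the unfolded protein response and of ER-associated degradation, 6 were higher over both strains and 0 lower, with a median of 0.13. Syvn1, a ubiquitin ligase of the ER membrane, rose by 0.29 ± 0.053, the transcription factor Atf4 by 0.27 ± 0.078, the stress sensor Eif2ak3 (PERK) by 0.24 ± 0.057, Sel1h, a partner of Syvn1, by 0.23 ± 0.076 and Creb3l1 by 0.16 ± 0.030 over both strains. Ddit3 (CHOP), Herpud1 and Edem1 were at -0.03 ± 0.066, 0.01 ± 0.057 and 0.01 ± 0.030 and were not called, and neither were the sensors Ern1 (-0.12 ± 0.066) and Atf6 (0.16 ± 0.057). Xbp1, a transcription factor of this response, was just inside the threshold, with a rise of 0.13 ± 0.046 over both strains (limma adjusted p = 0.0498).

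Marker genes of the cell types were read beside these changes. Among all tested probes, 10.8% were called higher and 11.5% lower over both strains. Of 12 beta cell markers, 1 was higher and 5 were lower. Of 8 alpha, delta and PP cell markers, 0 were higher and 1 was lower, and of 19 acinar markers 0 were higher and 2 were lower, both near the share of all probes called lower. Ins1, Ins2 and Iapp among the beta cell markers were saturated in all readings, and Gcg, Sst, Ppy and Pyy among the others in part, so a change of these 7 hormone genes could not be seen or only in part. The summed signal of the acinar markers ranged from 3286 to 4399 in B6 and from 3769 to 4897 in BLKS in low glucose, and from 3094 to 3726 and from 3318 to 4495 in high glucose. Of 8 duct markers, 3 were higher and 1 was lower. Their summed signal ranged from 17084 to 31531 in B6 low, 23681 to 26231 in B6 high, 17714 to 32520 in BLKS low and 30053 to 55303 in BLKS high, so that in BLKS it was higher in high glucose, with overlap. Spp1, which is also made by other cells, led this list with a rise of 1.37 ± 0.376 over both strains. A summed signal can follow 1 bright gene, so it does not stand for all 8 markers. Their median change in BLKS was 0.14, and 1 of 8 was called higher there, against 6.47% of all tested probes. Of 16 macrophage, fibroblast and endothelial markers, 1 was higher and 6 were lower. Of the 20 acinar marker genes on the array, 1 was not bright enough to be tested. The part of cell types in the changes of the transport genes was not tested.

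The start regions of the genes were read in RefSeq (GRCm38.p6) for letters known from the control of ER genes, as a description of genes that moved together. Of the 53 genes, 46 had a window, and of the 31 that rose over both strains, 25. The full ER stress element, CCAAT followed by 9 bases and CCACG, was searched on both strands of the 250 bases before the start. It was in 0 of the 50 windows of these genes and in 0.113% of all 32851 windows, among them that of Hspa5, so these letters were not found in the windows searched. The shorter letters ACGTG, the core of a site for ER stress factors, were in 42.3% of the 26 windows of genes that rose, in 29.2% of the 24 windows of the others and in 16.6% of all windows. CCACG alone was in 46.2%, 41.7% and 28.3%. CCAAT was in 38.5%, 20.8% and 33.8%, and CACGTG in 7.69%, 4.17% and 6.02%. ACGTG and CCACG overlap within CCACGTG and contain CG, and the share of windows rich in CG was not matched, so the shares are a description only. The parts around ACGTG are shown for the 4 genes with the largest change at their brightest probe among those that rose and hold it, on the strand of the gene, with ACGTG, or CACGT on the other strand, in capitals.
Kdelr3, chr15:79516299-79516407, plus strand: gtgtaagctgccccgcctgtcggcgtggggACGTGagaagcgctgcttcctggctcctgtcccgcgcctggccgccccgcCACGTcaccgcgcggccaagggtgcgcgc
Copz2, chr11:96849726-96849790, plus strand: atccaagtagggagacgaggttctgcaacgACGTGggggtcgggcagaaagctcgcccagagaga
Srprb, chr9:103202066-103202130, minus strand: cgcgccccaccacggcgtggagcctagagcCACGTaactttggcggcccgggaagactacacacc
Ssr3, chr3:65392708-65392772, minus strand: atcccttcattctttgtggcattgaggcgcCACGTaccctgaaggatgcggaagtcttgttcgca
In Kdelr3 the letters stand 79 and 25 bases before the start at their outer ends, and in Srprb they reach to 31 bases before it, whereas in Copz2 and Ssr3 they lie farther off, with their nearest base 116 and 185 bases before it. Whether any factor binds there was not measured.

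Between the strains, 12 probes of the selection were higher and 3 were lower in the BLKS mice in 20 mM glucose, of 99 tested. Among all tested probes, 4.98% were higher and 6.13% lower. With the array pair as a block, which uses the pairing of B6 and BLKS mice on the same arrays, 25 probes were called in either direction with a fixed and 28 with a random block, against 15 without it. Over all tested probes the blocks called 20% and 25.2%. The 12 probes belong to 10 genes, and 11 of the 12 had also risen with glucose over both strains, as had 54 of all 99. The share of risen probes among all probes higher in BLKS is not given here. A link between strain difference and glucose response was not tested. The largest difference was at the Tram1 probe A_52_P547328, whose 4 BLKS mice (10.03 to 10.08) were all above the 5 B6 mice (9.35 to 9.62) in high glucose, by 0.55 ± 0.094 or 1.47-fold (limma adjusted p = 0.0022, exact permutation p = 0.0079). The other 2 Tram1 probes differed by 0.09 ± 0.061 and 0.13 ± 0.055 and were not called. With the array pair as a block, the second of these was called as well (limma adjusted p = 0.0138 with a fixed and 0.00813 with a random block). Cope followed, with B6 mice in high glucose at 12.24, 12.44, 12.31, 12.27 and 12.39 and BLKS mice at 12.66, 12.89, 12.67 and 12.76, a difference of 0.41 ± 0.081 (adjusted p = 0.0047). Copb1 was higher by 0.41 ± 0.107 at 1 of 2 probes, and Srprb by 0.32 ± 0.063 and 0.30 ± 0.066 at 2 of 3 probes.

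Srp9 was higher in BLKS at both probes, by 0.30 ± 0.085 and 0.28 ± 0.085, Sec63 by 0.32 ± 0.0575 at 1 of 3 probes, Ssr3 by 0.38 ± 0.091 at 1 of 3 probes, and Copz2 by 0.30 ± 0.073 at 1 of 2 probes. The 3 probes that were lower in BLKS were both probes of Srp54, by 0.46 ± 0.108 and 0.35 ± 0.090, and 1 of 2 of the exocyst gene Sec6l1, by 0.36 ± 0.065. Ssr2 was lower in all 4 BLKS mice than in all 5 B6 mice in high glucose, but its difference, -0.22 ± 0.074, did not pass the test (limma adjusted p = 0.062). It passed without the 2 libraries that went against their label (adjusted p = 0.0333) and with a random block for array pairs (adjusted p = 0.0227). In the marker lists, 8 of 16 macrophage, fibroblast and endothelial markers were lower and 3 of 8 duct markers were higher in BLKS in high glucose. Their part in these differences was not tested. Also higher were 8 of 18 ER chaperones and folding enzymes and 6 of 12 oligosaccharyltransferase and N-glycosylation genes, with 0 lower. Of 11 genes for COPI and its Arf regulators, 2 were higher and 0 lower. Of 16 for ER exit and cargo handling, 1 was higher and 1 lower. Among all tested probes these shares were 4.98% and 6.13%.

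In low glucose, 0 of 99 probes were called for strain, and 0% of all tested probes were, whereas 35 of the 99 had an unadjusted p below 0.05. The share of all tested probes below that value is not given here, so such unadjusted counts cannot be read as particular to the selection. The count of called probes changed with the block and with the 2 libraries that went against their strain label. With the array pair as a block, 18 probes (fixed) or 35 (random) were called, against 8.04% and 16.1% of all tested probes. Without both libraries, 26 of the 99 probes were called higher and 4 lower in BLKS, and 7.05% of all tested probes were called higher and 8.57% lower. Without the library labelled B6 low 4 alone, 22 of the 99 were called (9.15% of all tested probes), and without that labelled BLKS low 5 alone, 23 (8.1%). Cope shows the pattern in single values: the library labelled B6 low 4 was at 12.36 where the other B6 mice in low glucose lay between 11.95 and 12.14, and the library labelled BLKS low 5 was at 12.15 where the other BLKS mice lay between 12.42 and 12.52. Its strain difference in low glucose was 0.30 ± 0.076 with all mice (limma adjusted p = 0.12) and 0.43 ± 0.056 without both libraries (adjusted p = 2.9e-05). Sec22l3 differed by 0.67 ± 0.088 at 1 of 3 probes without them (adjusted p = 3.58e-05), a probe that was at 0.25 in high glucose and was not called there.

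**Figure D5:**
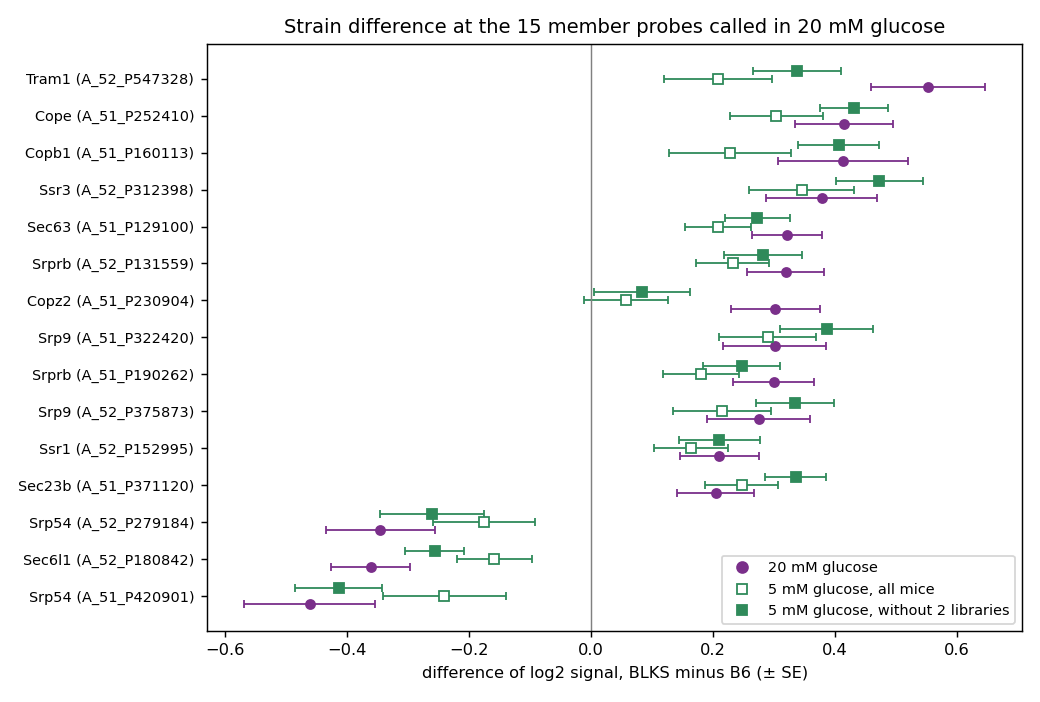
Difference in log2 signal between BLKS and B6 islets, with its SE, at the 15 probes called for strain in 20 mM glucose (circles), and at the same probes in 5 mM glucose with all mice (open squares) and without the libraries labelled B6 low 4 and BLKS low 5 (filled squares). The 15 probes keep their direction in 5 mM glucose, with Copz2 near 0 there (0.06 with all mice).

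Whether the strains differ in their response to glucose was tested by the difference between the 2 responses. None of the 99 probes was called, against 0.0409% of all tested probes, and 6 had an unadjusted p below 0.05. The differences ran from -0.36 at Sec61g to 0.34 ± 0.129 at the Tram1 probe A_52_P547328 (limma adjusted p = 0.94). Without the 2 libraries that went against their label, again none was called and 11 had an unadjusted p below 0.05. The SEs leave room for differences of about this size, so equal responses are not shown.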

How the data were processed

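Islet RNA of 19 mice was measured on 20 Agilent 2-colour arrays of 41534 spots, each mouse with both dyes on a dye-swapped pair. The deposited files hold processed signal intensity for each dye, which the authors obtained with Agilent Feature Extraction (8.1 in the submitters' processing notes, 9.5.3.1 per the file headers), with dye normalization and without background subtraction. The authors also deposited a table of log2 mean signals averaged over dyes, which was used as an alternative.

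Here, log2 signals without outlier spots were scaled between arrays (Aquantile) and averaged over spots, dyes and arrays of a mouse. Probes well above background in at least 4 mice were kept, for a mouse in at least 50% of spots, leaving 29330 of 41174 probes. The 4 group means were fitted with limma 3.58.1 (R 4.3.3), with Benjamini-Hochberg adjustment over all tested probes and calls at an adjusted p of 0.05. Errors given with ± are SEs. The number of arrays limits the precision. Exact permutation tests went through all divisions of the mice (Python 3.11.15, numpy 2.4.6), and probes and gene names came from the array's gene column. Of the 108 selected probes, 80 matched RefSeq by accession, 15 by symbol and 13 by synonym.

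Per-mouse values are given mainly for up to 3 genes of each role with the largest change over both strains at the brightest probe, for probes called for strain in high glucose with a difference of at least 0.5, and for Tram1. Of other lists, up to 4 genes with the largest change could be named. Arcn1, Hspa5, Creb3l1, Ddit3, Herpud1, Edem1, Ern1, Atf6 and Xbp1 were named after their values were seen. The members and lists were chosen with earlier results of these data known. Same-numbered B6 and BLKS mice of a glucose concentration shared an array pair per the labels, and what set them apart from their group means went together, with r between 0.020 and 0.694 (median 0.482) over 9 pairs, against a median of -0.0058 for other mice of different groups. Alternatives covered background correction, scaling, the filter, single dyes, the authors' table, array-pair blocks, the model of the study's methods, and leaving out each mouse. On simulated data with 29327 probes, changes of 0.5 on the log2 scale were recovered for 96% of changed probes in B6, 94% in BLKS and 100% over both strains. The simulated mice varied independently, whereas mice that shared an array pair went together in the data. These shares may thus be too high for the arrays. Changes below 0.5 were not simulated, so the recovery of changes near the median of the selected probes, 0.13 over both strains, is not known.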

Additional observations from a re-analysis of the deposited data

Results flagged for a closer look

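Of 104 groups of 4 or 5 mice examined at the probes described in most detail, 4 held a mouse far from the others, where chance gives about 1 in 20. The measure is the gap to the nearest other mouse as a share of the whole range, set against Dixon's critical value. For Cope, the library labelled BLKS low 5 was at 12.15 against 12.42 to 12.52 in the other BLKS mice in low glucose, a share of 0.724. For Sec23b, the same library was at 11.50 against 11.66 to 11.72, a share of 0.745. It is one of the libraries that went against their strain label. For Sec61g, B6 high 4 was at 13.17 against 13.41 to 13.50 (0.726), and BLKS high 1 was at 13.47 against 13.21 to 13.23 (0.934). Both values of Sec61g enter the difference between the strains' responses given for that gene.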

How the results depend on the processing

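The counts below are of the 99 tested probes called in either direction. With the settings described, 44 were called in B6, 40 in BLKS, 55 over both strains, 15 for strain in high glucose, 0 for strain in low glucose and 0 for a difference between responses. The authors' log2 table gave 21 in B6, 24 in BLKS and 6 for strain in high glucose, and no scaling between arrays gave 25 in BLKS and 9 for strain in high glucose. With the array pair as a replicate block, strain in high glucose had 25 (fixed) or 28 (random) and strain in low glucose 18 or 35, and the random block called 1 difference between responses, that of the Tram1 probe A_52_P547328 (0.36, limma adjusted p = 0.0449). The model of the study's methods, which takes each dye value as a sample, gave 27, 37 and 1, the last being Sec61g (-0.36, adjusted p = 0.0236). Cy3 alone gave 10 for strain in low glucose, and leaving out both libraries that went against their strain label gave 30. The cause was not tested for any of these changes. Over both strains the count lay between 40 and 60 under all alternatives run. Leaving out 1 mouse at a time gave 39 to 46 in B6, 29 to 42 in BLKS, 53 to 57 over both strains, 10 to 17 for strain in high glucose, 0 to 23 for strain in low glucose and 0 for the difference between responses. Single calls in BLKS that were lost without 1 mouse were those of Cope, Sec14l1, Sec23b, Sec23ip, Srpr and Ssr4, Sec15l2 lost its call over both strains, and Srp9 its strain difference in high glucose. No named change that was called reversed. Hormone genes at saturation and probes near background limit what these arrays can show.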

Other observations

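Some beta cell genes outside the transport route were lower in high glucose. Over both strains Ucn3, a hormone of mature beta cells, fell by 0.59 and Slc2a2, their glucose transporter, fell by 0.57 on the log2 scale, and the transcription factor Nkx6-1 fell by 0.25. Pcsk1, a protease that processes proinsulin, rose by 0.42. Of the 12 markers, 5 were lower and 1 was higher (limma, Benjamini-Hochberg adjusted), against 11.5% and 10.8% of all tested probes. Ins1, Ins2 and Iapp were saturated in all readings, so they could not show a rise.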
